A study of Mus musculus with 6 samples.

Results

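Glutathione S-transferases were examined as a set of 10 named genes of the alpha class (Gsta3, Gsta4), the mu class (Gstm1, Gstm2, Gstm3, Gstm5), the theta class (Gstt1), the omega class (Gsto1) and the microsomal family (Mgst1, Mgst2). The set was chosen by gene symbol, with earlier results of these data known. Its 10 genes were among 12393 named genes on the array. Probe sets, the groups of short array oligonucleotides that each give 1 signal, numbered 17 for these genes out of 22626. Of these, 12 probe sets for 9 genes had signals high enough to be tested, and Gsta3 did not.

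Glutathione S-transferases join the tripeptide glutathione to electrophilic compounds, which makes those compounds more soluble and marks them for export. In the intestine they act on dietary chemicals, drugs and the aldehydes that arise when membrane lipids are oxidised. The cytosolic classes are soluble dimers, whereas the microsomal enzymes sit in membranes and belong to a separate protein family. Several of these genes are known targets of the oxidant sensor Nrf2 (Nfe2l2) and of the xenobiotic receptors PXR (Nr1i2) and CAR (Nr1i3).

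Ileum RNA came from male wild type mice of a mixed C57BL/6:129Sv background, aged 8 to 10 months, and was hybridised to 6 Affymetrix arrays in 3 groups of 2. The Sham_Vehicle group had the common bile duct exposed but not tied and received the vehicle of 1% Tween80 and 1% methylcellulose by gavage. In the BDL_Vehicle group the duct was ligated, which stops bile from reaching the gut, and the mice received the same vehicle. In the BDL_GW4064 group ligated mice received GW4064, a compound that activates FXR (Nr1h4, the nuclear receptor for bile acids), at 100 mg/kg/day. Dosing began 2 days ahead of the operation and continued for 5 days afterwards. Sham-operated mice given GW4064 were not analysed here, so the action of the compound was seen only in ligated mice. The labels do not state whether both arrays of a group represent different mice, and p-values may then measure technical spread alone.

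The arrays had been scaled to 1 common mean signal before deposit, and a signal of 37.1 marked the lower bound of the probe sets tested. They fell into sets of 3 by an 18S ribosomal RNA control: its signal was 67.3 to 88.7 in replicate 1 of BDL_Vehicle and the Sham_Vehicle pair, and 8.6 to 13.3 in the GW4064 pair and replicate 2 of BDL_Vehicle. The sources used here do not give the labelling batch of each array. Signals did not overlap between the array sets for 27.7% of all probe sets tested and for 2 of the 12 transferase probe sets, both of which belonged to Gsto1. BDL_GW4064 replicate 2 stood apart in the summed signals of smooth muscle, mesenteric adipose and enteric neuron markers, as described beside the results that it touches.

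Gsta4, Gstm1 and Gstm3 were the transferases that differed most between groups. Their signals were lower after ligation than in sham-operated mice on 4 of their 5 tested probe sets without overlap, and higher in the GW4064 group than in both other groups on all 5. On the scale of log2(signal + 4), the difference between ligated mice with and without GW4064 was 1.21 to 1.61, which is 2.31-fold to 3.05-fold. Gstm5 had the opposite order after ligation, and Mgst1 and Gstt1 stayed within a narrow range, whereas the probe sets of Gsto1 disagreed. None of these differences passed the adjusted threshold of 0.05 over 13575 probe sets, with Gsta4 nearest to it at an adjusted p of 0.0502. In whole ileum, fewer cells of a type and less RNA per cell cannot be told apart.

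**Figure D1:**
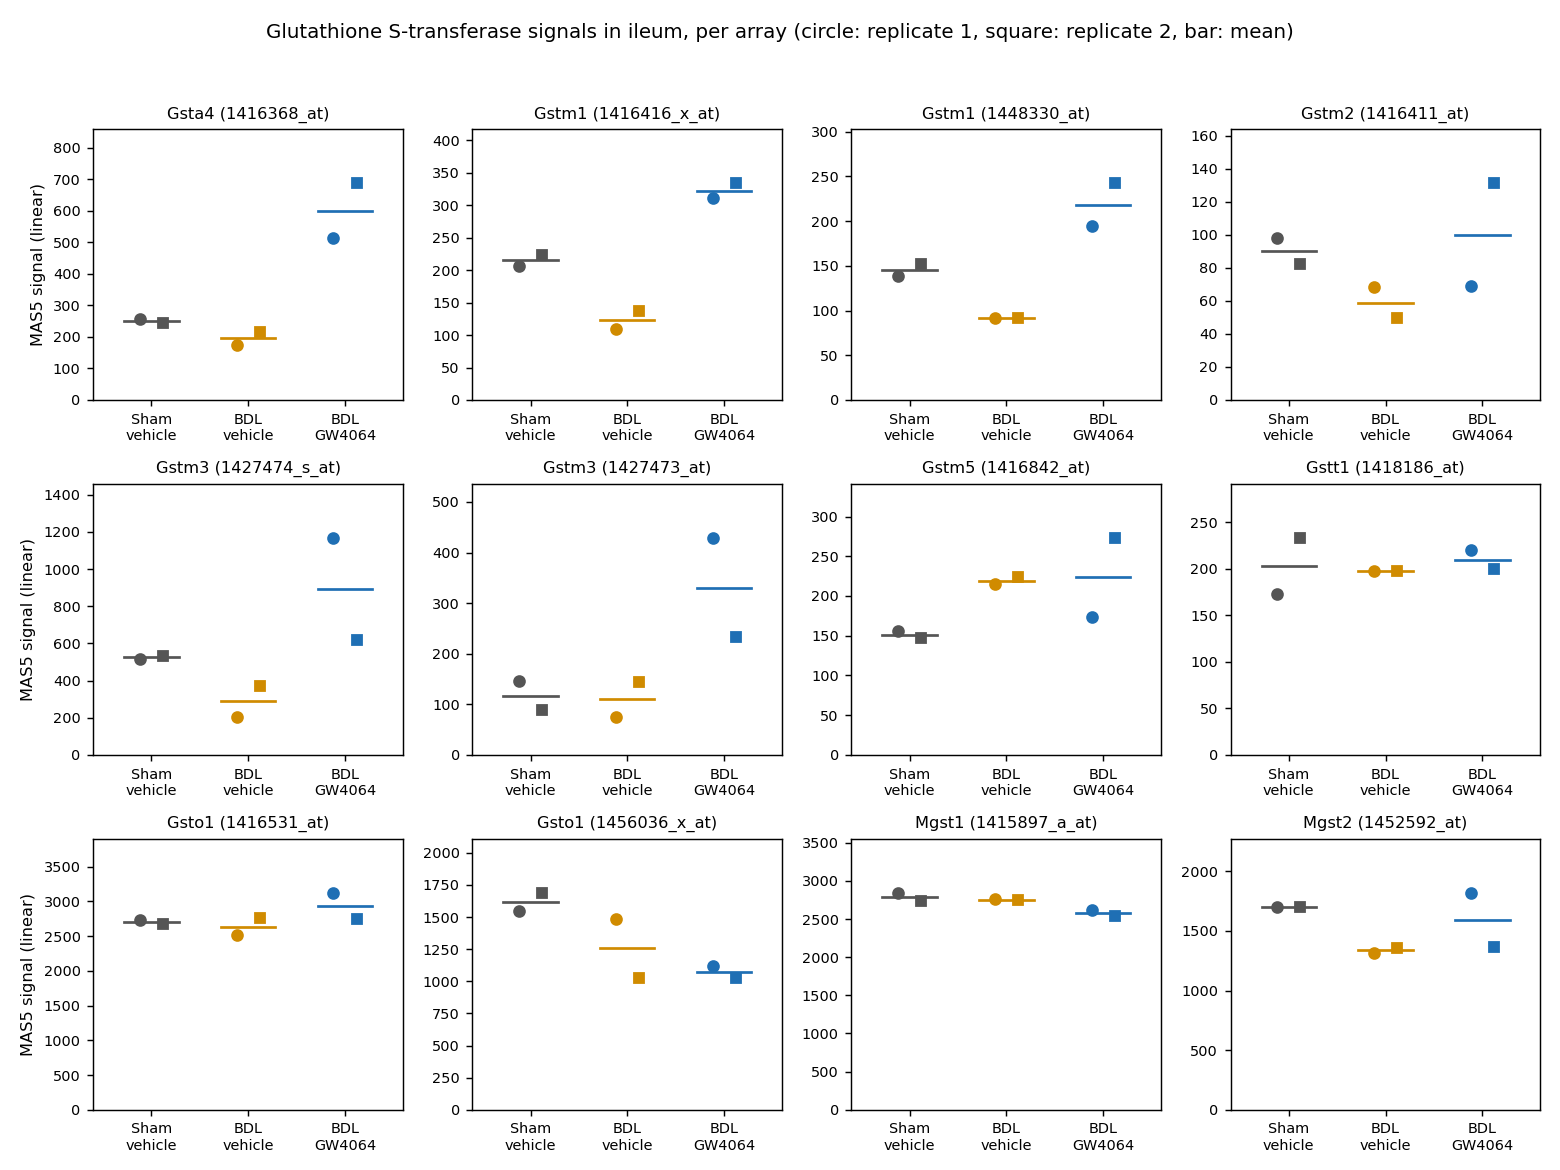
Signal of each tested transferase probe set in every array, on a linear axis that starts at 0 (circle, replicate 1; square, replicate 2; bar, mean of the 2 arrays). Gsta4, Gstm1 and Gstm3 lie highest in the BDL_GW4064 group, whereas Gstt1 and Mgst1 differ little between groups.

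Gsta4 encodes an alpha-class enzyme known for conjugating aldehydes from lipid peroxidation. Its signal was 256.2 and 244.8 in the Sham_Vehicle arrays, 175.5 and 216.1 in the BDL_Vehicle arrays, and 513.1 and 686.8 in the BDL_GW4064 arrays. No 2 groups overlapped, and the GW4064 arrays were far above the other 4. The difference between BDL_GW4064 and BDL_Vehicle was 1.59 ± 0.19 (SE), or 3.01-fold, with a 95% interval of 1.15 to 2.03. It ranked 10th among 13575 probe sets by p and missed the threshold (adjusted p = 0.0502). Without BDL_GW4064 replicate 1 the difference was 1.80, but that leaves only replicate 2, which stood apart in smooth muscle markers. Without replicate 2 the difference was 1.38. Against Sham_Vehicle, the GW4064 group was higher by 1.23 ± 0.19 (adjusted p = 0.136). The lower signal after ligation, -0.36 ± 0.19, had an adjusted p of 0.752, and its interval of -0.79 to 0.08 includes 0.

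Gsta3, the other alpha-class gene, is known in mouse for detoxifying the epoxide of aflatoxin. Its probe sets gave signals of 9.4 to 24.2 and 7.2 to 28.6 over the 6 arrays, all below the bound of 37.1. No fold is given for it, since every group lay below the tested range. The alpha class was therefore measured here through Gsta4.

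The mu class contributed 4 genes from a cluster on chromosome 3. In the RefSeq annotation of assembly GRCm38.p6 the cluster reads Gstm5, Gstm7, Gstm6, Gstm3, Gstm2, Gstm1 and Gstm4 along the chromosome. Promoter windows are shown for Gstm1 and Gstm3, whose signals differed most with GW4064, and for Gstm5, whose log2 difference between BDL_GW4064 and BDL_Vehicle was -0.01. Each stretch holds the 250 bases before the RefSeq start of the gene, 5′ to 3′ on the strand of the gene, in assembly GRCm38.p6. They lie at chr3:108017974-108018223 on the minus strand (Gstm1, the more upstream of its 2 starts), chr3:107969175-107969424 on the minus strand (Gstm3) and chr3:107895604-107895853 on the plus strand (Gstm5). Capitals mark matches, on either strand, to 5 motifs. These were the antioxidant response element core (TGACNNNGC), a hexamer bound by nuclear receptors (AGGTCA), its variant (AGTTCA), the xenobiotic response element core (GCGTG) and the TATA box (TATAAA).
Gstm1: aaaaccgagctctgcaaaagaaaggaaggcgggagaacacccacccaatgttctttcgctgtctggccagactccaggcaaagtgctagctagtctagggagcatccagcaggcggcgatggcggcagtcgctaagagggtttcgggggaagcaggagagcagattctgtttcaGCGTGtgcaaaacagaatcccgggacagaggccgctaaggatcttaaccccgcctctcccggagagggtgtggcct
Gstm3: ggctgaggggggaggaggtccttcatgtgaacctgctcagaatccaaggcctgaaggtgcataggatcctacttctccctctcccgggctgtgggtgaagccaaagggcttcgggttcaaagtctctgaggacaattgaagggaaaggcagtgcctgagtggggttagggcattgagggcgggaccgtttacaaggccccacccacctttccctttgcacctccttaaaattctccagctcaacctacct
Gstm5: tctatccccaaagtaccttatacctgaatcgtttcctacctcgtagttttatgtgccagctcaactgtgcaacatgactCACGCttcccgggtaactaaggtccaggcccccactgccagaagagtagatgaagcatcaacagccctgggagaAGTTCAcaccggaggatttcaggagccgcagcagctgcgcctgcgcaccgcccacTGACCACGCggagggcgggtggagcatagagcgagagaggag

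Windows of 300 bases, which add the first 50 bases after the start, were found for 9 of the 10 genes, 11 windows in all. The gene without a window was Gsta4, which was therefore not searched for motifs. The antioxidant response element core was in the windows of Gsta3, Gstm5 and Mgst1, and in 12.4% of 32851 windows over all genes. In Gstm5 it began at base -42 from the start and overlapped a GCGTG match on the opposite strand at -38. Further Gstm5 matches were AGTTCA at -97, GCGTG at -171, also on the opposite strand, and TATAAA at 41 bases after the start. The upstream Gstm1 window held GCGTG at -76. The downstream Gstm1 window held GCGTG at -231, which is the same site, and TATAAA at -30. TATAAA was also in the Mgst2 window, at -32 and, on the opposite strand, at -34. Among the 9 genes searched, AGGTCA was found only at the downstream start of Gstm1, where it ran across the start. The Gstm2, Gstm3, Gstt1 and Gsto1 windows held no match, nor did the second Mgst1 window. Over all genes, 32.4% of windows held the xenobiotic response element core, 16.3% the AGGTCA hexamer, 14.0% its variant and 13.6% the TATA box. A match describes letters in these windows, and whether any factor bound there was not measured.

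Gstm1 was measured by 4 probe sets, of which 2 were bright enough to test. On 1416416_x_at its signal was 207.2 and 223.9 in the Sham_Vehicle arrays, 108.8 and 137.7 in the BDL_Vehicle arrays, and 310.9 and 333.9 in the BDL_GW4064 arrays. The 3 groups did not overlap, and the spread within each was small beside the gaps between them. The difference between BDL_Vehicle and Sham_Vehicle was -0.80 ± 0.17 (95% interval -1.19 to -0.40; adjusted p = 0.492). The difference between BDL_GW4064 and BDL_Vehicle was 1.37 ± 0.17, or 2.58-fold (95% interval 0.97 to 1.77; adjusted p = 0.0668). Against Sham_Vehicle the GW4064 arrays were higher by 0.57 ± 0.17 (adjusted p = 0.21).

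The second Gstm1 probe set, 1448330_at, gave the same order. It read 139 and 152.6 in the Sham_Vehicle arrays, 92.1 and 91.3 in the BDL_Vehicle arrays, and 194.1 and 242.3 in the BDL_GW4064 arrays. Its differences were -0.65 ± 0.18 after ligation (adjusted p = 0.725) and 1.21 ± 0.18 with GW4064 (adjusted p = 0.115). An _x_at probe set can bind transcripts of similar genes, and mu-class genes are close in sequence, so the share of the first signal that belongs to Gstm1 is uncertain. The other Gstm1 probe sets, 1425626_at and 1425627_x_at, lay below the tested range.

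Gstm3 had the widest range of group means. On 1427474_s_at its signal was 515.8 and 533.6 in the Sham_Vehicle arrays, 206.2 and 370 in the BDL_Vehicle arrays, and 1166.5 and 618.9 in the BDL_GW4064 arrays. The groups did not overlap, but the 2 arrays of each ligated group lay far apart, with replicate 1 of the GW4064 group the highest of all. The difference between BDL_GW4064 and BDL_Vehicle was 1.61 ± 0.34, or 3.05-fold (95% interval 0.82 to 2.39; adjusted p = 0.268). After ligation it was -0.91 ± 0.34 (adjusted p = 0.752), and -0.50 without BDL_Vehicle replicate 1 or -1.33 without replicate 2.

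The second Gstm3 probe set, 1427473_at, read 146.2 and 88.4, then 75.1 and 144.5, then 428.3 and 233 in the same order of groups and replicates. Both GW4064 arrays were above the other 4, by 1.56 ± 0.40 over BDL_Vehicle (adjusted p = 0.358) and by 1.44 ± 0.40 over Sham_Vehicle (adjusted p = 0.202). The Sham_Vehicle and BDL_Vehicle arrays overlapped, at a difference of -0.12 ± 0.40. The probe sets therefore gave like differences with GW4064 and unlike ones after ligation. An _s_at probe set is shared by several transcripts, so the first signal may hold more than Gstm3.

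Gstm2 was dimmer and more variable. Its signal was 98 and 82.1 in the Sham_Vehicle arrays, 68.4 and 49.6 in the BDL_Vehicle arrays, and 68.8 and 131.2 in the BDL_GW4064 arrays. The BDL_Vehicle arrays were the lowest, and GW4064 replicate 1 was within 1 signal unit of the nearer of them. The difference between BDL_GW4064 and BDL_Vehicle was 0.67 ± 0.32 (adjusted p = 0.722) and was 0.22 without GW4064 replicate 2. The difference after ligation was -0.59 ± 0.32 (adjusted p = 0.752).

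Gstm5 differed from the other mu-class members. Its signal was 155.4 and 147.5 in the Sham_Vehicle arrays, 214.5 and 223.8 in the BDL_Vehicle arrays, and 174.1 and 272.7 in the BDL_GW4064 arrays. Both groups of ligated mice lay above the sham group, and the GW4064 arrays spanned the BDL_Vehicle arrays. The difference after ligation was 0.52 ± 0.22 (95% interval 0.01 to 1.03; adjusted p = 0.752). With GW4064 it was -0.01 ± 0.22, with an interval of -0.52 to 0.50 that leaves room for a modest difference either way.

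The other genes of the cluster gave signals close to the lower bound. Gstm7 read 32.4 to 63.9, Gstm6 35.8 to 74.9 and Gstm4 35.7 to 43.8 over the 6 arrays. Their differences between BDL_GW4064 and BDL_Vehicle were 0.01 ± 0.35, -0.08 ± 0.34 and 0.09 ± 0.26. After ligation they were -0.03 ± 0.35, 0.03 ± 0.34 and -0.06 ± 0.26. At their brightest probe sets Gstm3, Gstm2 and Gstm1, which are neighbours, had larger differences, positive with GW4064 and negative after ligation. The second Gstm3 probe set had -0.12 ± 0.40 after ligation, and Gstm2 with GW4064 had 0.22 without BDL_GW4064 replicate 2. The brightest Gstm1 and Gstm3 probe sets may bind other mu-class transcripts, and the share of such signal was not tested.

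**Figure D2:**
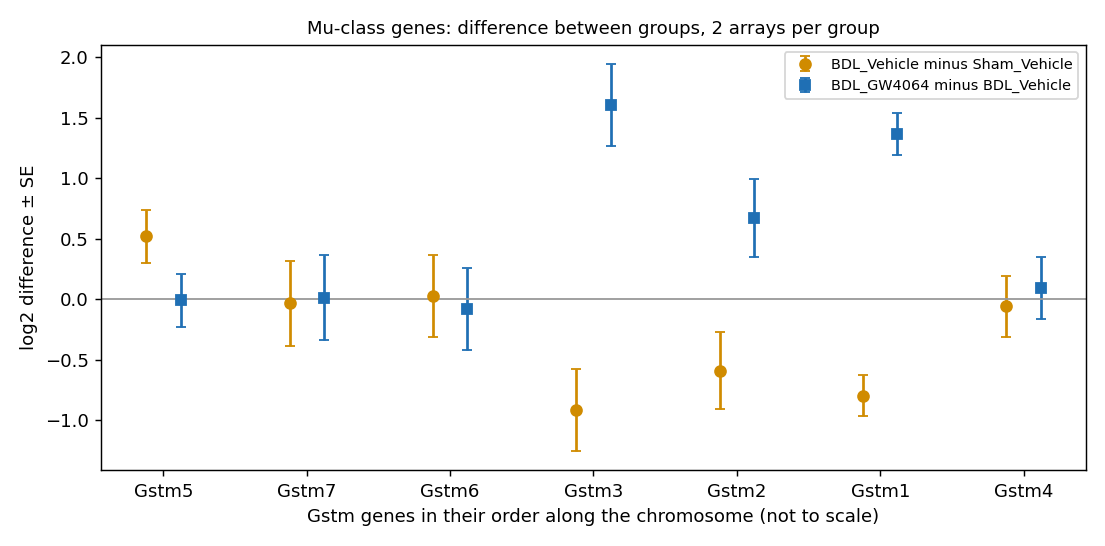
Log2 difference ± SE of each mu-class gene, in the order of the genes along chromosome 3 (circles, BDL_Vehicle minus Sham_Vehicle; squares, BDL_GW4064 minus BDL_Vehicle; 2 arrays per group). Each gene is shown at its brightest probe set, and the second Gstm3 probe set, at -0.12 after ligation, is not shown. Gstm3, Gstm2 and Gstm1 lie below 0 after ligation and above 0 with GW4064, Gstm5 lies above 0 after ligation, and Gstm7, Gstm6 and Gstm4 lie near 0.

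Gstt1, the theta-class enzyme known for its action on small halogenated compounds, differed little. Its signal was 172.8 and 233.1 in the Sham_Vehicle arrays, 198.1 and 197.7 in the BDL_Vehicle arrays, and 219.9 and 200 in the BDL_GW4064 arrays. The sham arrays spanned all others. The difference with GW4064 was 0.08 ± 0.18 (95% interval -0.34 to 0.51; adjusted p = 0.97).

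Gsto1, the omega-class enzyme known for reducing dehydroascorbate and glutathione-bound thiols, was measured by 2 probe sets that disagreed. On 1416531_at the signal was 2734.5 and 2671.6, then 2510.2 and 2764.7, then 3118.8 and 2748.2 for Sham_Vehicle, BDL_Vehicle and BDL_GW4064. The groups differed by at most 0.15 ± 0.11 on this probe set, and that difference had an interval of -0.10 to 0.41. On 1456036_x_at the signal was 1548.1 and 1686.4, then 1487.2 and 1024.1, then 1116.4 and 1029.3 in the same order. Here the GW4064 arrays were lower than the sham arrays by 0.59 ± 0.18 (log2 difference -0.59; adjusted p = 0.21). Both probe sets split by array set rather than by group alone, in opposite directions: the 3 arrays with low 18S signal read higher on the first and lower on the second. In a fit that includes the array set, the difference on 1456036_x_at between GW4064 and sham was -0.05, and the difference between the GW4064 and BDL_Vehicle groups was 0.07 in place of -0.20.

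The microsomal enzymes were bright. Mgst1, a membrane-bound transferase and peroxidase, read 2840 and 2743 in the Sham_Vehicle arrays, 2765.2 and 2744 in the BDL_Vehicle arrays, and 2623.2 and 2545 in the BDL_GW4064 arrays. The GW4064 arrays were the lowest, by a small margin: the difference from BDL_Vehicle was -0.09 ± 0.09 (95% interval -0.31 to 0.13; adjusted p = 0.915). A second Mgst1 probe set, 1415898_at, lay below the tested range.

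Mgst2 is known also for making leukotriene C4 from its epoxide precursor and glutathione. It read 1703.8 and 1701.1 in the Sham_Vehicle arrays, 1312.8 and 1360.1 in the BDL_Vehicle arrays, and 1817.9 and 1362.2 in the BDL_GW4064 arrays. The ligated mice on vehicle lay below the sham group, by a log2 difference of -0.35 ± 0.15 (95% interval -0.69 to -0.01; adjusted p = 0.752). The GW4064 arrays fell on either side of the sham arrays, and their difference from BDL_Vehicle was 0.24 ± 0.15 (adjusted p = 0.815). It was 0.03 without BDL_GW4064 replicate 1 and 0.44 without replicate 2.

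**Figure D3:**
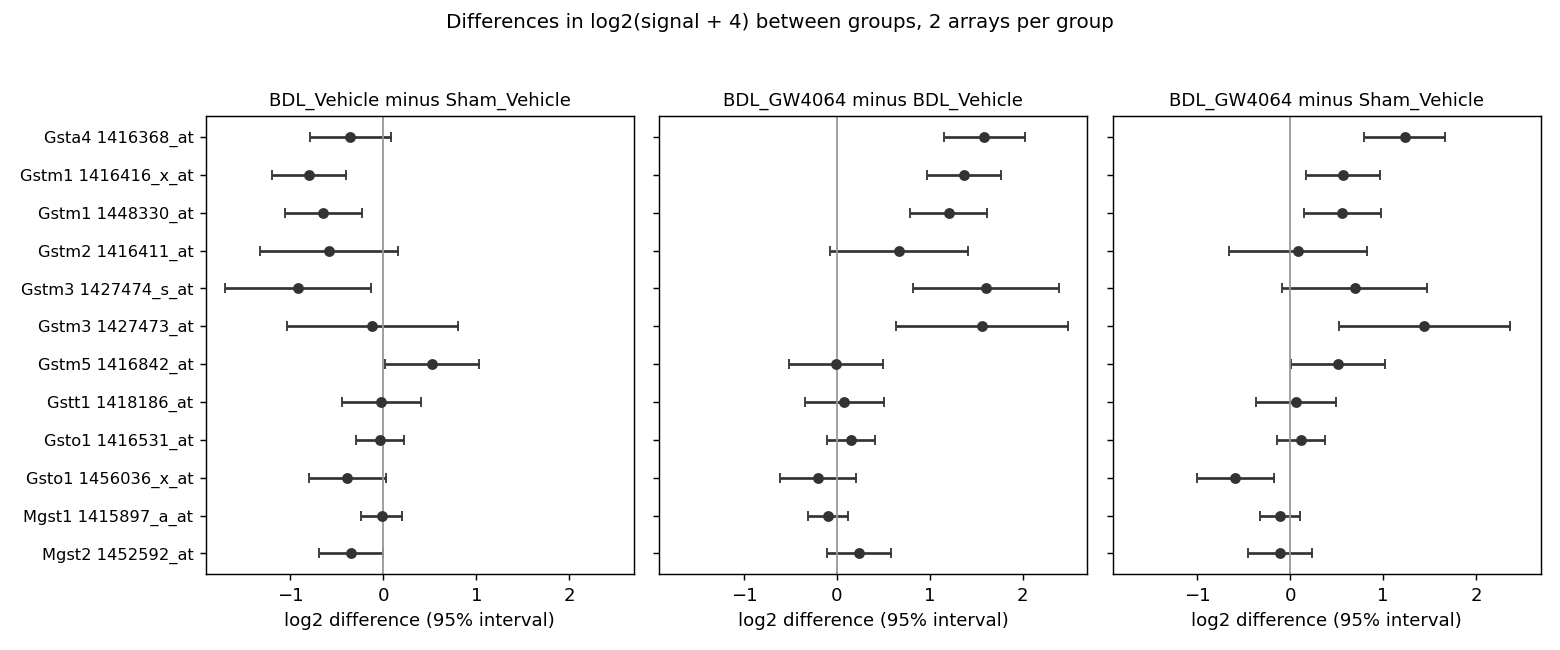
Log2 differences with 95% intervals for the 12 tested transferase probe sets in each of the 3 comparisons (x axis, difference in log2 of signal plus 4; 2 arrays per group). The intervals of Gsta4, Gstm1 and Gstm3 lie above 0 for BDL_GW4064 minus BDL_Vehicle, and none of the differences passed the adjusted threshold.

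Counted over the set, no probe set passed an adjusted p of 0.05 in any comparison with limma. The set was chosen with earlier results of these data known, so the counts in every comparison are descriptive. For BDL_Vehicle against Sham_Vehicle, 0 of 12 passed, beside 0.0295% of all 13575 tested. At an unadjusted p of 0.05, 5 of 12 did (1 higher, 4 lower, from 4 genes), beside 6.37% of all. Groups did not overlap for 8 of 12 (1 higher, 7 lower), beside 36.9% of all. The median difference was -0.35 over the 12 probe sets and -0.01 over all probe sets.

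For BDL_GW4064 against BDL_Vehicle, 0 of 12 passed, beside 0.0516% of all. At an unadjusted p of 0.05, 5 of 12 did, all higher and from Gsta4, Gstm1 and Gstm3, beside 7.48% of all. Groups did not overlap for 9 of 12 (8 higher, 1 lower), beside 35.5% of all. The median difference was 0.45, against -0.01 over all probe sets, and the log2 difference was above 0 for 7 of the 9 genes tested, at their brightest probe set, beside 50.4% of all genes.

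For BDL_GW4064 against Sham_Vehicle, 0 of 12 passed, beside 0.0368% of all. At an unadjusted p of 0.05, 6 of 12 did (5 higher, 1 lower), beside 16% of all. Groups did not overlap for 9 of 12 (7 higher, 2 lower), beside 50.1% of all. The median difference was 0.31, against 0.00 over all probe sets. In this comparison the groups lie in different array sets, so the counts cannot tell treatment from array set. The comparisons share arrays, so their values stand side by side and are not independent.

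The array sets touch these comparisons, since each holds a different mix of groups. Both Sham_Vehicle arrays were in the high 18S set and both GW4064 arrays in the low one. Between these 2 groups, treatment and array set therefore cannot be told apart. Only the BDL_Vehicle group had its replicates in different array sets. Within the low 18S arrays, BDL_Vehicle replicate 2 can be set against both GW4064 arrays. Adding the array set to the fit, which makes that same comparison, gave differences with GW4064 of 1.44 for Gsta4, 1.20 for Gstm1 (1416416_x_at) and 1.19 for Gstm3 (1427474_s_at), with adjusted p-values of 0.375, 0.375 and 0.97. With that term the Gstm3 difference between GW4064 and sham was -0.14 in place of 0.69, and that of Gstm3 on 1427473_at was 0.53 in place of 1.44. The Gstm1 difference from sham (1416416_x_at) was 0.24 in place of 0.57, and that of Gsta4 was 0.94 in place of 1.23.

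Summed markers of some cell types, but not all, were higher in both GW4064 arrays, and the smooth muscle sum was high in replicate 2 alone. Summed signals of 11 smooth muscle markers were 1810 to 2541 in 5 arrays and 17061 in BDL_GW4064 replicate 2. Of the fibroblast and matrix list all 12 genes had a probe set, and their summed signal was 2019 and 3038 in Sham_Vehicle, 1774 and 2464 in BDL_Vehicle, and 4979 and 5418 in BDL_GW4064. The 8 endothelial markers summed to 269.6 to 375.8 in the 4 arrays without GW4064 and to 579.6 and 538.2 with it. The 8 macrophage markers summed to 979.1 to 1360 without GW4064 and to 1792 and 1722 with it. By contrast, 7 lymphocyte markers summed to 971 to 1364 without GW4064 and to 1199 and 1088 with it. For 6 goblet and Paneth markers the sums were 20002 to 23605 without GW4064 and 22773 and 22029 with it. The 10 enterocyte markers summed to 37735 and 37499 in Sham_Vehicle, 31292 and 35846 in BDL_Vehicle, and 41664 and 36557 in BDL_GW4064, so markers of the main epithelial cell of the labelled tissue were bright in every array. Both BDL_Vehicle sums were the lowest. The list holds Fabp6, an ileal bile acid binding protein and FXR target, which fell by 1.20 after ligation (adjusted p = 0.0194) and rose by 1.20 with GW4064 (adjusted p = 0.0119). Without Fabp6 the sums of the groups overlapped.

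The summed signal of 5 mesenteric adipose markers was also highest in BDL_GW4064 replicate 2, at 1045 against 203.6 to 522.2 in the other arrays. Adipoq (216.1) and Fabp4 (665.3) were highest in that array, whereas Cidec, Lep and Retn were highest in other arrays. For 5 markers of enteric neurons and glia the sum was 200.9 there against 56.1 to 85.7. None of these neuron and glia markers was bright enough to test. Uchl1 (58.6) and Stmn2 (78.1) stood out in that array, whereas Gfap was highest in Sham_Vehicle replicate 1 (40.9). No marker of any list was at 0 in any array. Of the transferases, Gsta4, Gstm1, Gstm2 and Gstm5 were highest in BDL_GW4064 replicate 2, whereas Gstm3 was highest in the other GW4064 array. Without BDL_GW4064 replicate 2, the difference from BDL_Vehicle was 1.38 for Gsta4, 1.32 for Gstm1 (1416416_x_at) and 2.06 for Gstm3 (1427474_s_at), and 6 of 12 probe sets had an unadjusted p below 0.05, beside 925 of all 13575. The summed fibroblast, endothelial and macrophage markers were higher in both GW4064 arrays than in the other 4. Single genes of these lists were so in 9 of 12, 6 of 8 and 6 of 8 cases, and in 5 of 11 cases of the smooth muscle list. The share over all probe sets was not counted, so these counts have no background to be read against. The endothelial count includes Pecam1, Tie1 and Emcn, which were not bright enough to test. No tested gene of the fibroblast, endothelial and macrophage lists passed the adjusted threshold. The part of these markers in the differences was not tested.

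**Figure D4:**
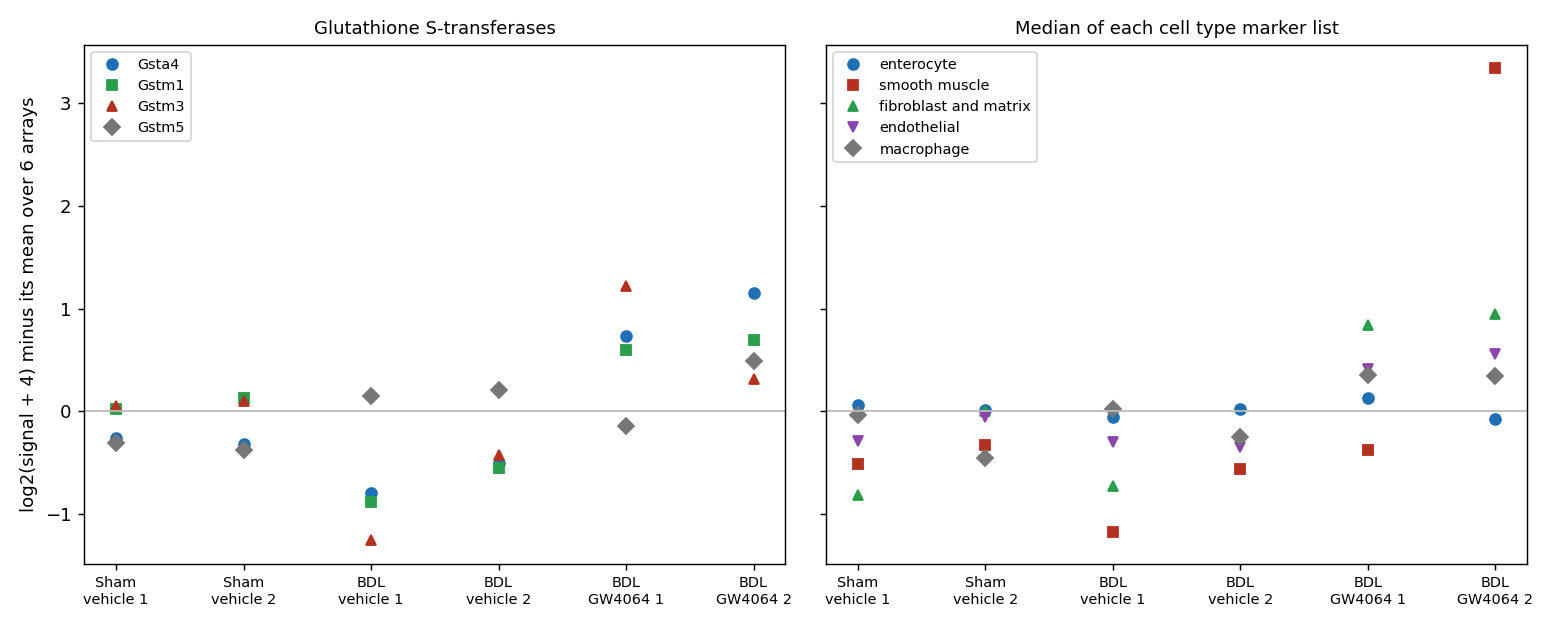
Left, log2(signal + 4) of the brightest probe set of Gsta4, Gstm1, Gstm3 and Gstm5 in each array, minus the mean over the 6 arrays; right, the median of 5 cell type marker lists on the same scale. Smooth muscle markers stand at 3.34 in BDL_GW4064 replicate 2 alone, fibroblast and matrix markers at 0.84 and 0.94 in the GW4064 arrays, and enterocyte markers stay near 0.

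The genes whose signals ran most like each of the 3 widest-ranging transferases were found by distance over the 6 arrays among 12487 probe sets. Nearest to Gsta4 were Timp2, an inhibitor of matrix metalloproteinases (distance 0.38, r = 0.97), Igfbp4, a binding protein of insulin-like growth factors (0.42, r = 0.97), and Serpina3n, a serine protease inhibitor (0.42, r = 0.99). Nearest to Gstm1 were Flvcr2, a membrane transporter (0.26, r = 0.98), Abca8a, an ATP-binding cassette transporter (0.31, r = 0.97), and Reep5, a protein that shapes the endoplasmic reticulum (0.44, r = 0.96). Nearest to Gstm3 were Bgn, the matrix proteoglycan biglycan (0.54, r = 0.97), Bco2, a carotenoid-cleaving enzyme (0.73, r = 0.92), and Tm4sf4, a membrane protein (0.75, r = 0.92). Of the 12487 probe sets, 53, 22 and 26 reached r of 0.95 with Gsta4, Gstm1 and Gstm3. These genes were picked for their likeness, and all points share the same 6 arrays.

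Other glutathione transferases and related membrane proteins gave no calls: 0 of 12 genes tested passed in any comparison. With GW4064, 8 of the 12 were higher and 4 lower than in BDL_Vehicle, with a median of 0.03, beside 0.00 over 7919 genes. Gstk1, the kappa-class transferase of mitochondria and peroxisomes, read 312.2 and 370.8 in the Sham_Vehicle arrays, 184.5 and 240.5 in the BDL_Vehicle arrays, and 372.6 and 299.6 in the BDL_GW4064 arrays. Its differences were -0.68 ± 0.19 after ligation (adjusted p = 0.741) and 0.66 ± 0.19 with GW4064 (adjusted p = 0.434). The sham and GW4064 arrays of Gstk1 overlapped, unlike those of Gstm1. Alox5ap, which presents arachidonic acid for leukotriene synthesis, had a difference of -1.12 ± 0.36 after ligation (adjusted p = 0.751). The corresponding values were -0.60 ± 0.27 for the prostaglandin E synthase Ptges, whose BDL_Vehicle arrays both lay below the bound of 37.1, and 0.25 ± 0.15 for Gstt2.

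Of 8 tested genes of glutathione synthesis and cystine uptake, none passed. Chac1, which degrades glutathione inside cells, read 46.5 and 31.8, then 32.7 and 31.5, then 93.8 and 84.5 for Sham_Vehicle, BDL_Vehicle and BDL_GW4064, so that only the GW4064 arrays were high. Its fitted difference with GW4064 was 1.37 ± 0.26 (adjusted p = 0.24), with both BDL_Vehicle arrays and Sham_Vehicle replicate 2 below the bound of 37.1. Chac1 passed the filter through the GW4064 arrays, so this difference is descriptive. Its relative Chac2 differed the other way, by -0.44 ± 0.19. Gclc, the catalytic subunit of the enzyme that limits glutathione synthesis, was lower in the GW4064 group than in the sham group, at -0.49 ± 0.17 (adjusted p = 0.245). Ggct, which acts on gamma-glutamyl dipeptides, had a difference of -0.66 ± 0.31 with GW4064.

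Among 8 tested genes of glutathione reduction and peroxidases, 7 were higher with GW4064 than in the sham group, 5 of them at an unadjusted p below 0.05, and none passed the adjusted threshold. Over all genes 51.8% were higher in this comparison, and 16% of all probe sets had an unadjusted p below 0.05. The sham and GW4064 arrays lie in different array sets, so treatment and array set cannot be told apart here. The median difference was 0.40, beside 0.01 over all genes. Gpx3, a secreted peroxidase, read 139.3 and 155.2 in Sham_Vehicle, 159.9 and 186.8 in BDL_Vehicle, and 369.9 and 386.2 in BDL_GW4064, a difference of 1.34 ± 0.16 from sham (adjusted p = 0.075). Gpx2, the peroxidase of the gut epithelium, read 1833 and 2223, then 2667 and 2608, then 3829 and 3307, and was 0.82 ± 0.13 above sham (adjusted p = 0.141). Gsr, which regenerates reduced glutathione, was above sham by 0.57 ± 0.16 after ligation and by 0.72 ± 0.16 with GW4064. Gpx1 was above sham by 0.37 ± 0.14 with GW4064.

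For the export and further processing of conjugates, 0 of 10 tested genes passed, and 8 of 10 were lower with GW4064 than in BDL_Vehicle. Over all genes 50.4% were higher in that comparison. The median difference of the list was -0.15, beside 0.00 over all genes, and 0 of the 10 had an unadjusted p below 0.05 (limma). Abcc2, the pump that carries glutathione conjugates into the lumen, read 168 and 267 in Sham_Vehicle, 78.2 and 135.5 in BDL_Vehicle, and 110.4 and 254.3 in BDL_GW4064. Its difference after ligation was -1.01 ± 0.42 (adjusted p = 0.751), and the GW4064 arrays overlapped with both other groups. The aminoacylases Acy1 and Acy3 had differences of 0.49 ± 0.21 and 0.51 ± 0.24 after ligation, and the efflux pump Abcg2 one of -0.30 ± 0.13 with GW4064.

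**Figure D5:**
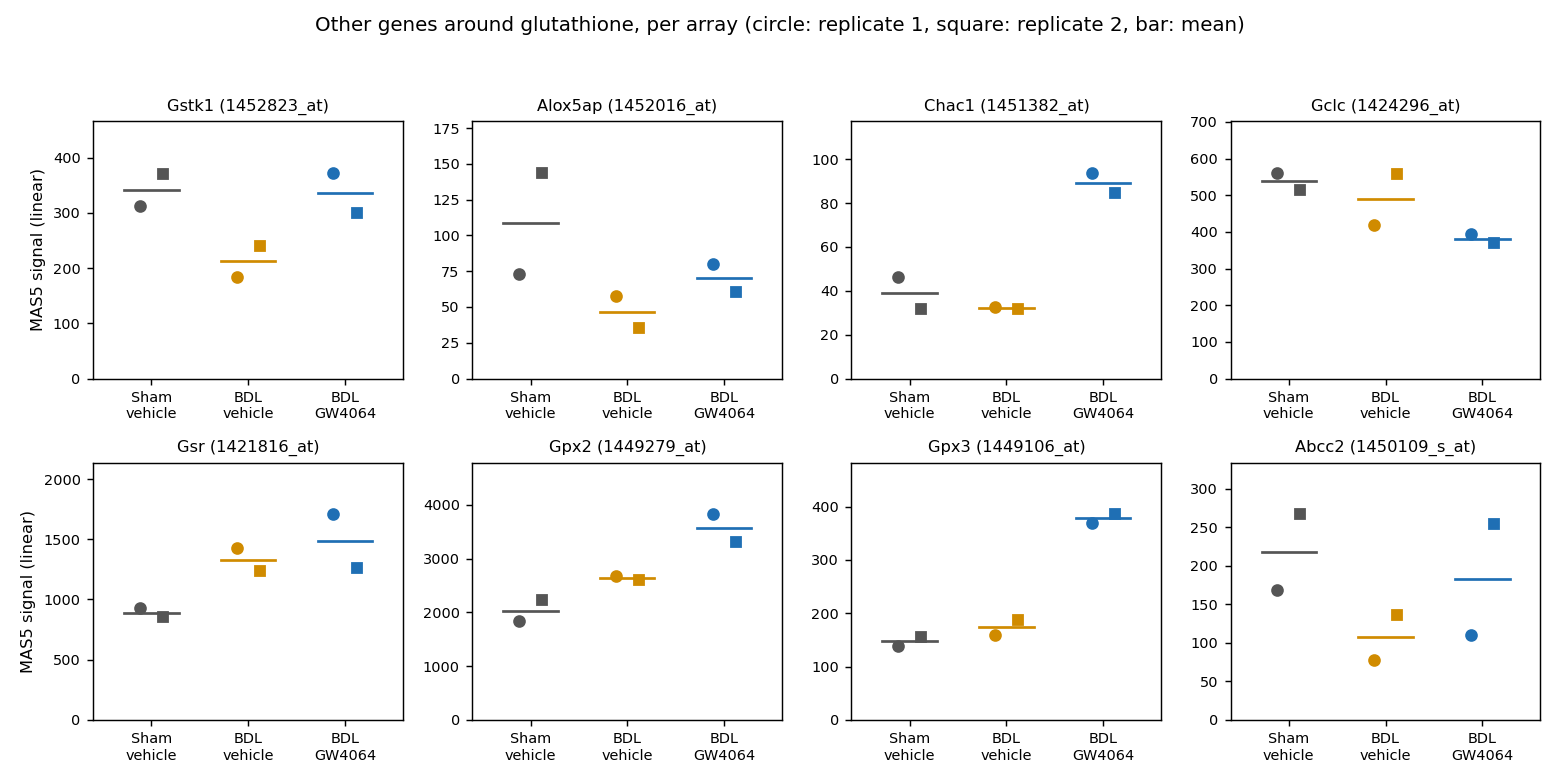
Signal per array, on a linear axis that starts at 0, of 8 genes around glutathione (circle, replicate 1; square, replicate 2; bar, mean of the 2 arrays). Chac1 and Gpx3 are highest in both BDL_GW4064 arrays, whereas Gstk1 is lowest in the BDL_Vehicle arrays.

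Of the 5 gene lists, only that of xenobiotic sensors and their classic targets held calls, and none of these was a sensor. The list was made with earlier results of these data known, so its calls are descriptive. After ligation 2 of 15 tested genes were called lower, Cyp3a11 and Fgf15, beside 0.0295% of all probe sets called. With GW4064 3 of 15 were called higher than in BDL_Vehicle, Cyp3a11, Fgf15 and Nr0b2, beside 0.0516% of all. Cyp3a11, a cytochrome P450 induced through PXR, read 2194 and 1955 in Sham_Vehicle, 628.8 and 673.7 in BDL_Vehicle, and 1787 and 1754 in BDL_GW4064. It fell by 1.66 after ligation (SE 0.12, adjusted p = 0.00526) and rose by 1.44 ± 0.12 with GW4064 (adjusted p = 0.0094). The FXR targets Fgf15 and Nr0b2 were below the tested bound in both BDL_Vehicle arrays and read 972.1 and 809.6, and 691.7 and 493.5, in the GW4064 arrays. They passed the filter through the groups where they were high. Cyp2b10, a target of CAR, had a difference of -2.41 ± 0.36 after ligation (adjusted p = 0.2). The 3 regulators of transferase genes named at the outset were added after their values were seen: Nr1i2 was higher with GW4064 by 0.61 ± 0.16 (adjusted p = 0.37), Nfe2l2 differed by -0.19 ± 0.13 (adjusted p = 0.844) and Nr1i3 by -0.22 ± 0.44 (adjusted p = 0.967).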

How the data were processed

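Ileum RNA of 6 samples was measured on 1-colour Affymetrix arrays. Per the submitters' processing notes, the deposited intensity values are MAS5 signals, which combine perfect-match and mismatch probes into 1 background-corrected value; the sources used here give no version, settings or detection calls. Each array had the same trimmed mean of 200.1 (2% cut from either end), so they had been scaled to a common level before deposit. Their number limits the precision.

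Signals were analysed as log2(signal + 4), a scale that understates changes of dim genes. Control probe sets (64) and the lowest 40% by mean were left out, which left 13575. Gene names came from the platform annotation (20380 probe sets with 1 gene, 691 with several, 1555 with none); no transferase probe set had several, and all 10 symbols were in RefSeq. Promoter sequences are those of RefSeq, assembly GRCm38.p6.

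Differences were fitted with limma 3.58.1 (R 4.3.3), 1 mean per group over all 6 arrays with a signal trend in the prior, and adjusted by Benjamini-Hochberg over all 13575. The fit was tested on simulated data. A gene's brightest probe set stood for it in lists. Named were all 10 genes, up to 4 genes per list with the smallest unadjusted p, and the 3 genes nearest to each of the 3 widest-ranging transferases. The genes and lists were chosen with earlier results of these data known. In 16 alternatives the fit was repeated with other choices of normalization, pseudocount, filter, prior and arrays fitted, with a replicate block or the array set as a term, and without each array in turn.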

Additional observations from a re-analysis of the deposited data

How the results depend on the processing

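No transferase probe set passed the adjusted threshold under 15 of the 16 alternatives; without BDL_GW4064 replicate 1, 1 did (Gsta4, BDL_GW4064 minus BDL_Vehicle), so leaving out arrays gave 0 to 1. Over all probe sets, calls of 4, 7 and 5 became 1 to 6, 2 to 48 and 0 to 29. The fit without BDL_GW4064 replicate 1 leaves only replicate 2 in that group, the array that stood apart in smooth muscle markers. Of 36 log2 differences, 25 kept their sign throughout, among them those of Gsta4 and Gstm1. The filter, the prior, the replicate block and fitting only the arrays compared leave a difference itself unchanged. So does leaving out an array of a group not compared. These settings could therefore not turn a sign. Signs turned with median centring after ligation for Gstt1 (0.0306), Gsto1 1416531_at (0.0138) and Mgst1 (0.0318), with quantile normalization for Gstm5 with GW4064 (0.0072), and when the array set was a term for Gsto1 1456036_x_at (0.0657, GW4064 against BDL_Vehicle), Gstm3 1427474_s_at (-0.14) and Gsto1 1416531_at (-0.024, both against sham). The cause was not tested. For GW4064 against BDL_Vehicle, the array set term makes the same comparison as leaving out BDL_Vehicle replicate 1. Both settings therefore gave 0.0657 for Gsto1 1456036_x_at. With single arrays left out, differences after ligation ran from -0.57 to 0.33 for Gstm3 1427473_at, -0.23 to 0.19 for Gstt1, -0.11 to 0.0326 for Gsto1 1416531_at and -0.044 to 0.0061 for Mgst1. Those of GW4064 against BDL_Vehicle ran from -0.33 to 0.31 for Gstm5 and -0.47 to 0.0657 for Gsto1 1456036_x_at. Those of GW4064 against sham ran from -0.36 to 0.53 for Gstm2, -0.15 to 0.27 for Gstt1 and -0.32 to 0.0944 for Mgst2.

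With a replicate block, 0 transferase probe sets were called in each comparison, and 2, 4 and 0 of all probe sets (759, 966 and 1936 at an unadjusted p of 0.05). Differences between replicates 1 and 2 correlated at 0.04, 0.09 and -0.12 between groups. These values cannot decide whether the replicate numbers pair the arrays. The BDL_Vehicle replicates lie in different array sets, and BDL_GW4064 replicate 2 stood apart in smooth muscle markers. A crossed replicate block over the 4 ligated arrays, chosen after seeing the data, called 2 transferase probe sets, both of Gstm3 and for GW4064 against BDL_Vehicle, and 37 of all.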
